A study of Mus musculus with 16 samples.

Results

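A set of 539 chromatin regions was open on day 2 of neural differentiation and had closed by day 3, both in untreated cells and in Tet1 KO cells given the Wnt inhibitor XAV939 (XAV). The regions were selected on measured values among 80590 consensus regions, of which they are 0.669%. In each of 16 libraries, the 50000 distinct peak intervals with the highest −log10 p counted as open intervals. Windows of 150 bp on either side of their summits were merged over all libraries, and a merged window held by at least 2 libraries made a consensus region. A member was open in all 4 libraries of WT and KO cells on day 2, in none of the 4 untreated WT and KO libraries on day 3, and in neither of the 2 KO libraries with XAV. Of the 39904 consensus regions that were open in all 4 day 2 libraries, 1149 were open in no untreated WT or KO library on day 3. The number of members depended on the rank limit, with 314 at 30000 intervals per library and 1466 with every interval, and was 822 without WT day 2 replicate 1. XAV divided these 1149 regions into the 539 members, 335 that were open in 1 XAV library and 275 that were open in both. The 275 regions serve below as the most similar comparison set. Another set holds 31413 regions that were open in all 10 libraries named by the rule.

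Accessibility was measured by ATAC-seq, in which a transposase cuts DNA that is free of nucleosomes, in mouse embryonic stem cells on the way to anterior neural progenitor cells. The 8 groups of 2 libraries were WT cells, cells with a catalytically dead Tet1 (MUT) and Tet1 knockout cells (KO), each untreated and sampled on days 2 and 3, then KO cells with XAV (5 µM) on day 3 and WT cells with the GSK3 inhibitor CHIR99021 (CHIR), a Wnt activator, on day 3. All lines have a mixed B6 and 129S6 background. The KO lines KO1 and KO15 gave the day 2, day 3 and XAV libraries, and the MUT lines CM59 and CM69, which are edited clones of the WT7 line, gave both MUT groups. Untreated WT libraries came from the lines WT70 and WT72 and the CHIR libraries from WT7 and WT34, so line and treatment cannot be told apart there. No library received the vehicle alone. Replicate 2 of each day 2 group is marked as merged in the name of its deposited list, and the labels do not say what was merged. The deposited lists held 135359 to 219047 distinct intervals per library, the read depth behind them is unknown, and the −log10 p at rank 50000 ran from 6.84 to 21.8. Both were higher on day 2, so the strength of the lists differs along with the day. Distinct intervals numbered 153617 to 219047 on day 2 and 135359 to 170200 on day 3. The median −log10 p at rank 50000 was 15.0 on day 2 and 11.2 on day 3. Promoters of Pou5f1, Sox2, Utf1 and Otx2, which are active in epiblast-like cells, were open in all 16 libraries. Those of the neural genes Sox1 and Pax6 were open in all 16 as well, and that of the forebrain gene Six3 in 3 of 6 libraries on day 2 and in 9 of 10 on day 3. Promoters of the primitive streak and endoderm genes looked at were open in 13 to 16 libraries, so open promoters do not tell these lineages apart here. A list of 14 fibroblast genes was used because the stem cells had been grown on feeders. The promoters of Col3a1, Postn, Lum and S100a4 were open in no library, and those of 7 others, Col1a1 and Fn1 among them, in all 16. That of Pdgfrb was open in all 6 libraries on day 2 and in 4 of 10 on day 3. Twist2 and Prrx1 promoters were open in 4 and 5 of 6 on day 2, and each in 9 of 10 on day 3.

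Accessible sites change within a day when pluripotent cells leave the epiblast-like state, because the transcription factors that hold nucleosomes away are replaced. Wnt signalling acts through β-catenin and the TCF factors, which bind enhancers of primitive streak genes. XAV stabilises Axin and so lowers β-catenin, and CHIR does the reverse. TET1 oxidises methylated cytosine and in mammals acts mostly at CpG dinucleotides. CpG-rich DNA is often unmethylated, and methylation was not measured here.

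The following stretches show what the members look like at the sequence level. They come from the 4 members with the best ranks on day 2 and from 3 members near genes of signalling or matrix lists, and are read 5′ to 3′ on the plus strand of GRCm38.p6 (RefSeq), whose coordinates are those of mm10. Each is the central part of its region outside annotated UTRs, at most 200 bases long, with CpG dinucleotides in capitals.
Rnf212, chr5:108774998-108775197: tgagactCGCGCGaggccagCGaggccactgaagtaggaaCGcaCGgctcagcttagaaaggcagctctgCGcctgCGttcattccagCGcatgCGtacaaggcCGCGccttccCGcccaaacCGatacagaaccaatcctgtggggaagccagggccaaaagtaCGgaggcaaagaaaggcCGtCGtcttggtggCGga
Terb2, chr2:122186289-122186454: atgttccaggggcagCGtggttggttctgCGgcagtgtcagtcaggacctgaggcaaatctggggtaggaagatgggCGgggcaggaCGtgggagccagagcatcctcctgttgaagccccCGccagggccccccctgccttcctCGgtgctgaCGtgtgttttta
Rtn1, chr12:72303980-72304179: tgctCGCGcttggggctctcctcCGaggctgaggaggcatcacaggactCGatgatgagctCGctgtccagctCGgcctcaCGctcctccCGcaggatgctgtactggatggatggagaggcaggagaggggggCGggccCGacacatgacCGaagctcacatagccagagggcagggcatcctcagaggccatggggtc
Spata5, chr3:37481287-37481486: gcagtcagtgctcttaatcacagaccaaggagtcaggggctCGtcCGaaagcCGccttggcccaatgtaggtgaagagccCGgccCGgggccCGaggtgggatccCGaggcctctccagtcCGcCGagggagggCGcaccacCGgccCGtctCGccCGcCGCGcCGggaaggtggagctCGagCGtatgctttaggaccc
Smad6, chr9:63953672-63953871: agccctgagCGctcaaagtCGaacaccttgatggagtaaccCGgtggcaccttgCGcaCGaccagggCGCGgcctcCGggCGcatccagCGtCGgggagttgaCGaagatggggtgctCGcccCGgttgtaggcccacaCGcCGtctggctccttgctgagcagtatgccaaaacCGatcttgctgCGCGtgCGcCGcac
Tcf7l2, chr19:55729476-55729675: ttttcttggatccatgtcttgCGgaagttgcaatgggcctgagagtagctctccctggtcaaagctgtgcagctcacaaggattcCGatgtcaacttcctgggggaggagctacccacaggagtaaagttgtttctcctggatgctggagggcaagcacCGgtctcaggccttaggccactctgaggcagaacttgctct
Fn1, chr1:71609477-71609676: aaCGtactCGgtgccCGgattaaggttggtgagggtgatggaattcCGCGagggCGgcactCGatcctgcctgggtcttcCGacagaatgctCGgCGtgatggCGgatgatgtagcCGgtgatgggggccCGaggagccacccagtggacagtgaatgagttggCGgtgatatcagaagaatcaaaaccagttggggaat
The Rnf212, Spata5 and Smad6 stretches held 18, 19 and 21 CpG in 200 bases, while that near Tcf7l2 held 3. Rnf212, Terb2, Rtn1, Smad6 and Fn1 stretches lay in or beside coding exons, the Spata5 stretch in an intron and the Tcf7l2 stretch between genes.

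Members were rich in CpG and lay often in coding exons. The median member held 9 CpG in the central 300 bp (quartiles 4 and 14), against 3 (1 and 6) for the 275 regions that stayed open under XAV, 5 over all consensus regions and 12 for the regions open in all 10 libraries. Median GC content was 56.7%, against 50.3% for the 275 regions and 53.7% overall. A total of 253 members (46.9%) held at least 10 CpG, compared with 10.2% of the 275 regions and 29.6% of all. These differences in sequence are descriptions, since no test of them was made. The median GC content of open regions was 55.0% to 56.0% in every library, and the share of open regions in coding exons was 18.2% to 19.0% on day 2 and 17.2% to 17.9% on day 3.

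Among the members, 183 (34.0%) overlapped a coding exon, 27 a UTR and 37 another exon, while 132 lay in introns and 160 (29.7%) between genes. Coding exons took 10.2% of the 275 regions, 23.0% of the regions open in all 10 libraries and 14.2% of all consensus regions. The difference was not limited to first exons. Of the 343 members over 3 kb from every annotated start site, 88 (25.7%) overlapped a coding exon, against 7.69% of such regions among the 275 and 4.70% overall. The exons were long, with a median of 307 bp of coding sequence in the longest one a member overlapped, compared with 144 bp over all consensus regions in coding exons. Only 42 members (7.79%) lay within 1 kb of the 5′ end of the gene they were assigned to, whereas 98 lay within 1 kb of the start of some protein-coding transcript, which can be internal to the gene. For all consensus regions the share at a gene's 5′ end was 19.4%, for the regions open in all 10 libraries it was 40.4%, and for the 275 regions it was 3.27%.

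**Figure D1:**
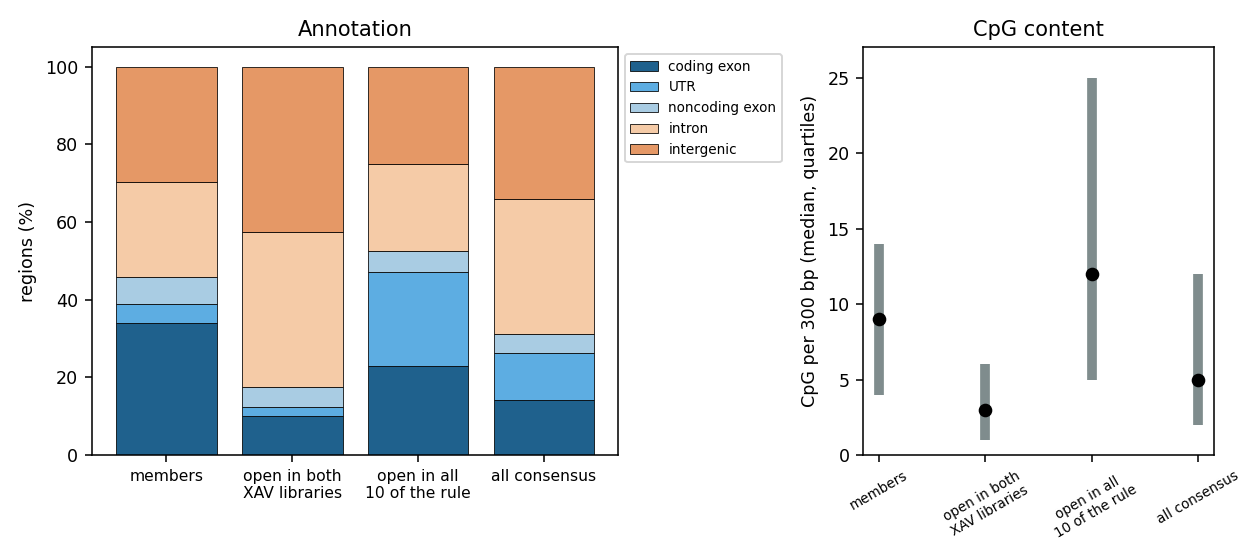
Left, stacked bars give the share of regions (%) in coding exons, UTRs, other exons, introns and between genes for the 539 members, the 275 regions open in both XAV libraries, the 31413 regions open in all 10 libraries of the rule and all 80590 consensus regions. Right, points give the median and bars the quartiles of CpG dinucleotides in the central 300 bp of each region. Members have the largest share in coding exons (34.0%) and a median of 9 CpG.

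The libraries that selected the members give their levels, as a description only. Fold enrichment is the authors' ratio of reads at the summit to the local background, and a library with no interval at a region was given 1. On day 2 the median member stood at 7.02 and 7.69 in WT and at 8.08 and 6.19 in KO cells. On day 3 it stood at 4.02 and 3.33 in WT, at 3.61 and 2.74 in KO and at 4.25 and 4.46 in KO cells with XAV. Regions open in all 10 libraries had medians of 7.11 to 9.47 over the same 10 libraries.

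Closed did not mean empty. A deposited interval below rank 50000 on day 3 still overlapped 87.4% and 75.5% of the members in WT, 84.4% and 62.5% in KO and 96.5% and 97.8% in KO with XAV. The share over all consensus regions was 87.8% to 94.8% in the day 3 libraries. A total of 255 members kept some interval in all 6 libraries in which the rule calls them closed, and 1 member had none in any of them. In 459 members, each of the 4 day 2 values of WT and KO cells exceeded all 6 day 3 values. The rule chose the members on these same 10 libraries, so that count is largely set by the selection and supports nothing. Its share over all consensus regions was not computed. Because cells were measured in bulk, fewer cells with an open region and less opening per cell cannot be told apart.

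Near the rank limit, membership rested on small steps. The 5 members with the worst day 2 rank, at Ksr2, Plch2, Cryge, Eif2ak4 and App, had ranks of 49990 to 49888, and the 5 nearest regions left out for this reason had ranks of 50016 to 50152. On the day 3 side, the members closest to the limit had best ranks of 50012 to 50122, and the nearest regions left out had 49964 to 49866. A total of 776 regions met the rule except for 1 day 2 library, and 605 except for 1 day 3 library.

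**Figure D2:**
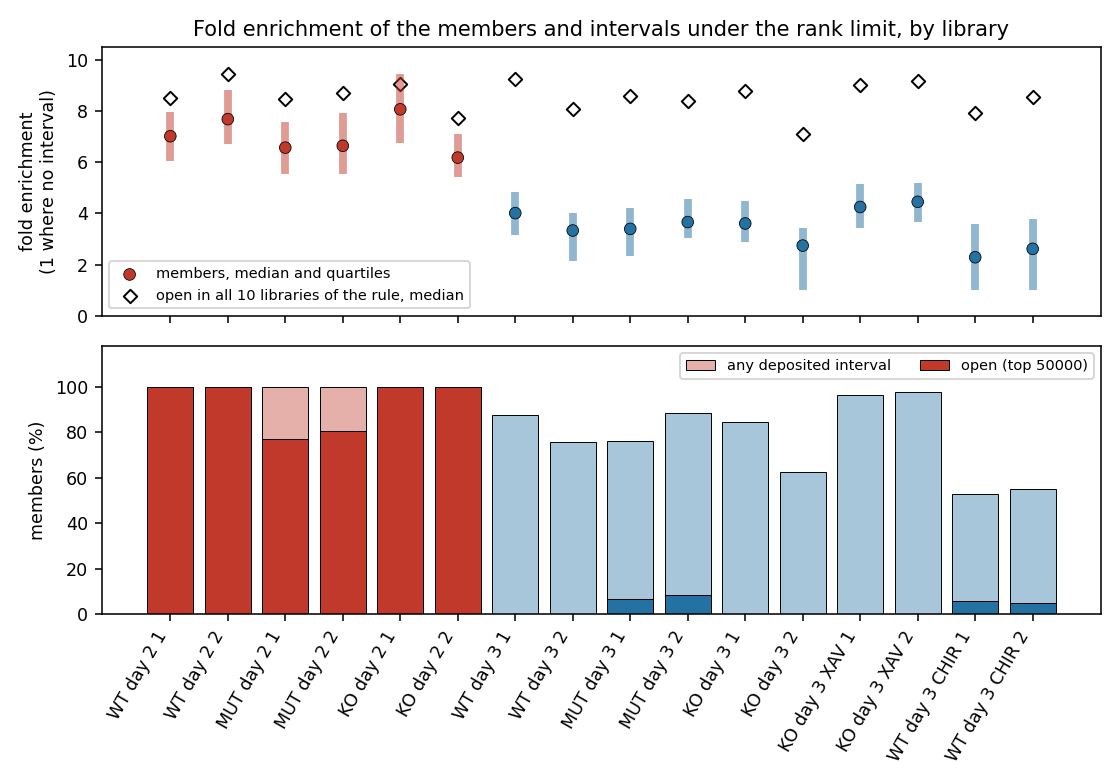
Top, the median (point) and quartiles (bar) of the fold enrichment of the 539 members in each library, with 1 for no interval, and the median of the 31413 regions open in all 10 libraries of the rule (diamonds). Bottom, bars start at 0 and give the members (%) that were open (dark) or overlapped by any deposited interval (light). Day 2 libraries are red and day 3 libraries blue, and on day 3 the share of members with an interval is lowest with CHIR (52.9% and 55.1%).

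The MUT libraries played no part in the selection and show whether the same regions closed in cells with catalytically inactive TET1. On day 2 the members were open at 76.8% and 80.3% in the 2 MUT libraries, a mean of 78.6% ± 2.49 (SD, n = 2). On day 3 they were open at 6.87% and 8.53%, a mean of 7.70% ± 1.18 (SD, n = 2). The day 3 values lay far below the day 2 values, and the groups did not overlap. The difference was −70.9 percentage points with an exact permutation p of 0.33 (two-sided), the smallest that 2 libraries against 2 allow. When every interval of the lists counted as open, the difference was −17.6 points. Over all consensus regions, with 50000 intervals, it was −0.760 points. The 275 regions that stayed open under XAV went from 89.5% and 85.1% to 23.3% and 36.7% in MUT cells. Each of the MUT lines showed the fall in members, which fell by 69.9 percentage points in CM59 and fell by 71.8 points in CM69.

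Taken region by region, 316 of the 539 members (58.6%) were open in both MUT libraries on day 2 and in neither on day 3, where 4.49% of all consensus regions were. Among the 275 regions, 115 (41.8%) were. On day 2, 358 members (66.4%) were open in both MUT libraries, 131 (24.3%) in 1 and 50 (9.28%) in none, although all 539 had a deposited interval in both. Over all consensus regions these shares were 57.4%, 14.2% and 28.4%. On day 3, 13 members (2.41%) were open in both MUT libraries, 57 (10.6%) in 1 and 469 (87.0%) in none. Over all consensus regions the day 3 shares were 55.5%, 16.5% and 28.05%. The member best ranked in both MUT libraries on day 3 lay 53082 bp from Creb5, a CREB family factor, with fold enrichments of 8.15 and 8.54. The other 12 members open in both included regions in Rgs6, Sirt5, Ncam2, Cd2ap and Soat2, and 1 of the 13 was open in neither MUT library on day 2.

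**Figure D3:**
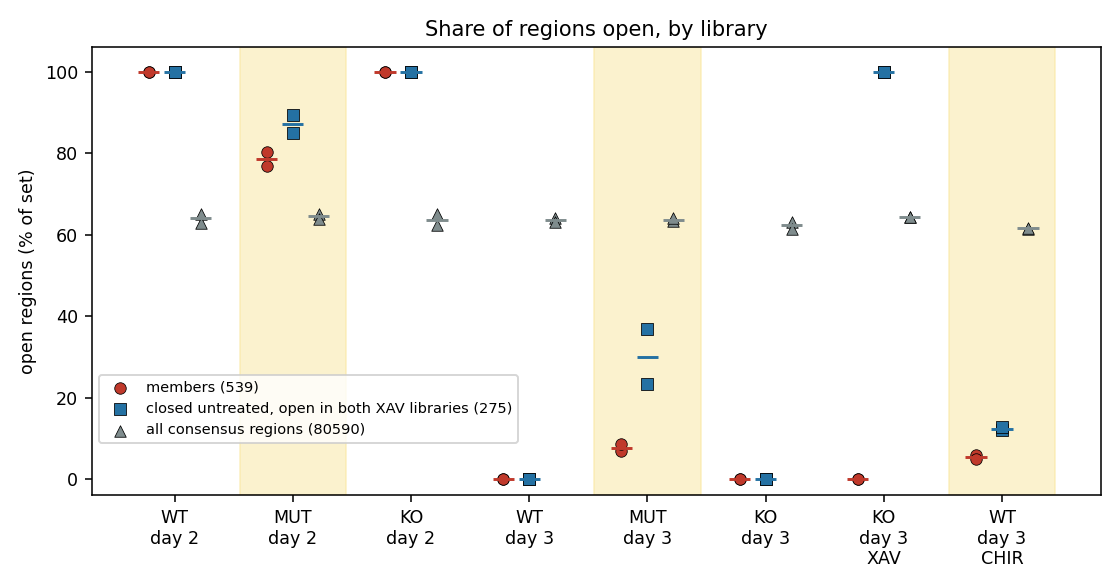
Points give the share of regions open (%) in each library, 2 per group, and short lines the group means, for the 539 members, the 275 regions that were open in both XAV libraries and all 80590 consensus regions. Shaded groups did not enter the rule, and in the other groups the values of the members are fixed by it. In MUT cells the members go from 76.8% and 80.3% on day 2 to 6.87% and 8.53% on day 3.

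Log2(fold enrichment + 1) was also compared between MUT day 3 and day 2 with limma, fitted over all 80590 regions and the 6 libraries outside the rule. The median difference of the members was −0.78 (quartiles −1.14 and −0.49), against −0.02 over all regions, and 529 of 539 members had a negative difference, against 57.4% of all regions. In 489 members (90.7%) both day 2 values exceeded both day 3 values, where 27.6% of all regions and 81.8% of the 275 regions did so. Of the 275 regions, 265 had a negative difference, with a median of −0.55. At an adjusted p (limma, Benjamini-Hochberg) below 0.05, 64 members (11.9%) were lower on day 3, where 0.861% of all regions were, and 0 were higher. At an unadjusted p below 0.05, 349 members (64.7%) were lower and 1 was higher, where 9.94% of all regions were lower and 4.84% higher. The 64 calls are fragile. With the replicate block by cell line, 0 members and 0 of all regions passed, and 423 members (78.5%) had an unadjusted p below 0.05, where 16.2% of all regions did. Leaving out 1 MUT library leaves 1 in its group, so only medians are given here for those fits. The median difference of the members was −0.76 without MUT day 2 replicate 1 and −0.81 without MUT day 2 replicate 2. It was −0.65 without MUT day 3 replicate 1 and −0.80 without MUT day 3 replicate 2. Medians over all regions ran from −0.03 to −0.01 in these fits. Of the 64 regions, 27 had no interval in either MUT library on day 3 and 36 had one in both, and with the fit limited to regions with an interval in every library 0 of 189 members and 0 of all 61304 regions passed. Of the 189 members, 137 (72.5%) had an unadjusted p below 0.05 there, against 14.3% of all regions in that fit.

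The 5 members with the lowest p in MUT lay near Spata5, Phf19, Ryr2 and Aspa and, with no gene assigned, in an intron at chr3:139424045-139424375. The region at Spata5, an AAA ATPase gene, had fold enrichments of 9.04 and 9.76 in MUT cells on day 2 and no interval in either library on day 3, a log2 difference of −2.38 ± 0.104 (SE, n = 2 per day) with an adjusted p of 0.00813 (limma). It had none in either CHIR library, 5.77 and 3.67 with XAV, and 3.81 and none in WT on day 3. Both MUT day 2 values thus stood above every day 3 value of every group. The region was named for its low p in MUT, and the rule required low ranks in WT, KO and XAV on day 3. That order is therefore largely set by the selection. The region in a coding exon of Phf19, which encodes a Polycomb accessory protein, was at 7.58 and 8.27 in MUT on day 2 and had no interval on day 3 (log2 difference −2.16 ± 0.104). The intronic region in Ryr2, a calcium release channel gene, fell by 1.99 ± 0.103, and the region 70 bp from the start of Aspa, the aspartoacylase gene, fell by 2.12 ± 0.110. These members share the absence of an interval on day 3, where the value is set to 1 in both replicates. The adjusted p was 0.00813 for each of the 5, and none of them passed with the replicate block.

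**Figure D4:**
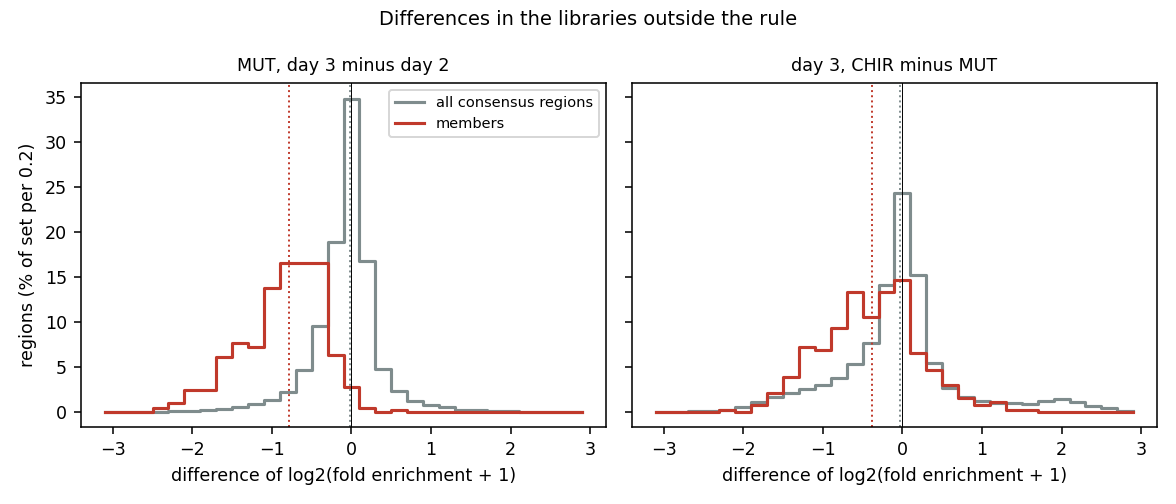
Histograms give the share of regions (%) per 0.2 of the difference of log2(fold enrichment + 1) for the 539 members (red) and all 80590 consensus regions (grey), with values beyond 3 drawn at 3 and medians as dotted lines. In MUT cells, day 3 minus day 2 (left), the members have a median of −0.78, against −0.02 overall. On day 3, CHIR minus MUT (right), the medians are −0.39 and −0.03.

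CHIR libraries offered a second readout outside the rule. On day 3 with CHIR the members were open at 5.94% and 5.01% (mean 5.47% ± 0.656, SD, n = 2), against 6.87% and 8.53% in MUT, whose cells lacked CHIR. The 275 regions were open at 12.0% and 12.7% with CHIR, and all consensus regions at 61.4% and 61.75%. Members with any deposited interval were fewer with CHIR (52.9% and 55.1%) than in MUT on day 3 (76.3% and 88.5%). The 275 regions had like shares with CHIR (53.1% and 54.55%) and higher ones in MUT (95.6% and 97.8%), while over all consensus regions the shares were 88.7% and 90.5% with CHIR and 91.6% and 92.8% in MUT.

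In limma, 100 members (18.55%) were lower with CHIR than in MUT on day 3, where 11.6% of all regions were, and 15 (2.78%) were higher, where 9.47% of all regions were. The median difference was −0.39, against −0.03 over all regions. The 275 regions that stayed open under XAV had a median of −0.75, and 105 of them (38.2%) were lower with CHIR, a larger share than of the members. Of the 100 lower members, 92 had no interval in either CHIR library, and with the fit limited to regions with an interval in every library 3 of 189 members (1.59%) were lower and 9 (4.76%) higher, where 6.96% of all regions were lower and 3.92% higher. On ranks, 50 members (9.28%) were lower, where 14.3% of all regions were, so the members exceeded the share of all regions in the first fit above and fell below it in both of these. Line, genotype and treatment differ together in this comparison and cannot be told apart. The lowest p belonged to an intronic region near Eml1, a microtubule protein gene, with 5.78 and 5.18 in MUT on day 3 and no interval with CHIR (log2 difference −1.70 ± 0.109, adjusted p = 0.000323, limma). The next regions lay near Mlxip (−1.60), Rapgef4 (−1.66) and Ankrd6 (−1.79) and, with no gene assigned, between genes at chr6:93629936-93630259 (−2.13). All 5 lacked an interval in both CHIR libraries.

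A few members were open in the CHIR libraries, whose lines have no day 2 or untreated library, so opening anew and never having closed cannot be told apart. A total of 19 (3.53%) were open in both CHIR libraries and 21 (3.90%) in 1, while 499 (92.6%) were open in none. Over all consensus regions these shares were 55.6%, 12.0% and 32.4%. The region in a coding exon of Celf6, an RNA-binding protein gene, had fold enrichments of 9.71 and 8.94 with CHIR, against 2.66 and 3.94 in MUT, 3.89 and 4.88 in WT and 4.10 and 3.36 in KO with XAV on day 3. Its CHIR values also exceeded the 6 values of day 2, which ran from 5.57 to 7.30. The region in Rbm24, another RNA-binding protein gene, was at 9.07 and 9.66 with CHIR and at 4.76 and 2.75 in MUT on day 3. Both were higher with CHIR in limma, by 1.27 ± 0.184 (adjusted p = 0.00677) at Celf6 and by 1.15 ± 0.203 (adjusted p = 0.0140) at Rbm24. The higher member at Fam217a was not open with CHIR, with 3.25 and 2.99 there and no interval in either MUT library on day 3. The best ranked member with CHIR was in an intron of Pipox, a peroxisomal oxidase gene, at 9.84 and 9.27. A pair of adjoining members at the 5′ end of the chemokine-like receptor gene Cmklr1 shared 1 interval, at 7.19 and 9.72.

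The 2 members with the best ranks on day 2 lay at genes of meiosis. The best worst rank over the 4 day 2 libraries of WT and KO cells, 17794, belonged to a region 103 bp from the 5′ end of Rnf212, whose protein is needed for meiotic crossovers. Its fold enrichments were 11.6 and 12.6 in WT, 9.04 and 9.46 in MUT and 12.4 and 11.0 in KO on day 2. On day 3 they were 3.46 and 3.33 in WT, none and 5.79 in MUT, 3.22 and 3.24 in KO, 6.08 and 3.67 with XAV and 2.28 and none with CHIR. All 6 day 2 values were higher than all 10 day 3 values. The rule and the ranking chose this region on its WT, KO and XAV values, so that order is largely set by the selection. The MUT difference was −1.48 ± 0.610 and did not pass the test (adjusted p = 0.356, limma).

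The next, with a worst rank of 18696, lay at the first exon of Terb2, whose protein ties telomeres to the nuclear envelope in meiosis. It went from 8.33 and 10.4 in MUT on day 2 to 3.74 and 3.36 on day 3, and its values in WT and KO on day 2 were 10.8 to 12.3. The Rtn1 region, in a coding exon of a reticulon gene, and the Spata5 region followed. The Rtn1 region went from 9.73 and 9.04 to 3.82 and 3.22 in MUT cells, a difference of −1.21 ± 0.120 (adjusted p = 0.0203, limma) that did not pass with the replicate block. The other 6 of the first 10 were assigned to B3gnt2, Zfp808, Sox14, Rasgrp3, Chd3 and Znrf4, and all 10 were open in both MUT libraries on day 2 and in neither on day 3. Of all members, 58.6% were.

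A list of 61 germline and meiosis genes was drawn up after these values had been seen, so its count describes the members and supports nothing. It held 183 consensus regions, of which 10 (5.46%) at 8 genes were members, where 0.669% of all regions were. At the 5′ ends of its genes lay 48 regions, of which 6 were members and 24 were open in all 10 libraries of the rule. Members made up 0.269% of all 15622 regions at 5′ ends. Besides Rnf212 and Terb2 these were Mcmdc2, a helicase-like gene of meiotic recombination, Mov10l1, a helicase gene of the piRNA pathway, Syce3, a component of the synaptonemal complex, and the oocyte factor gene Nobox. All 6 were open in both MUT libraries on day 2 and in no MUT or CHIR library on day 3. Of all members 54.4% were, and of all consensus regions 3.55%.

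The Mov10l1 region went from 7.76 and 7.95 in MUT on day 2 to 4.08 and 3.36 on day 3, and the Syce3 region from 5.55 and 6.50 to 2.72 and 2.45. Both were lower in limma (−0.92 ± 0.116, adjusted p = 0.0369, and −0.97 ± 0.124, adjusted p = 0.0371), though not with the replicate block. The Nobox region had a difference of −0.88 ± 0.168 and the Mcmdc2 region one of −1.63 ± 0.559, and neither passed (adjusted p = 0.0941 and 0.277, limma). Dmrt1, a transcription factor gene of gonad and germ cells, was the only gene with 3 members, at 26244 bp upstream of a start site and in introns. The upstream region (−1.08 ± 0.152, adjusted p = 0.0475) and the one 29298 bp downstream (−0.84 ± 0.110, adjusted p = 0.0399) were lower in MUT on day 3 without the replicate block, while the one 1162 bp downstream was at 4.74 and 3.68 on day 2 and at 2.83 and 4.86 on day 3. At 17 further genes there were 2 members each, among them Wnt2, Drosha, Ank3 and Adgrb1. Some of these pairs are adjoining windows, and 8 members shared their best interval with another member in all 4 day 2 libraries.

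Members were few at lineage genes. The 8 lists of pluripotency and lineage genes had 1107 consensus regions, of which 4 (0.361%) were members, and the lists of Wnt, Nodal and BMP, and FGF and ERK genes had 597, of which 7 (1.17%) were. No test of these shares was made. The 247 genes of 15 lists of these and control genes had 1837 consensus regions, of which 14 (0.762%) were members, against 0.669% of all regions. None of the 174 regions of core and formative pluripotency genes, the 153 of primitive streak genes, the 151 of mesoderm genes, the 246 of neuroectoderm and forebrain genes or the 177 of neural crest and surface ectoderm genes was a member. Naive pluripotency genes had 1 of 122, near Dppa5a, which was at 6.21 and 6.23 in MUT on day 2 and at 4.08 and 6.12 on day 3. Definitive endoderm genes had 1 of 104 (Spink1), extraembryonic genes 1 of 78 (Afp), fibroblast genes 1 of 70 (Fn1), housekeeping genes 1 of 61 (Eef1a1) and genes of DNA methylation 1 of 58 (Dnmt3l).

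Signalling lists held the rest. Of 279 regions at the 30 genes of the Wnt pathway list 2 were members, near Tcf7l2, a TCF factor, and in Wnt5a, a ligand that acts largely without β-catenin. Other Wnt genes are not in that list, and members were also assigned to Wnt2, Wnt7b, Wnt9b and Axin1, named after their values were seen. The Tcf7l2 region went from 8.71 and 7.58 in MUT on day 2 to 3.91 and 5.86 on day 3, and was at 4.54 and 5.54 with XAV. The Wnt5a region, in a coding exon, went from 7.36 and 7.51 to 5.64 and 3.05 in MUT cells and had no interval with CHIR, lower there than in MUT (−1.38, adjusted p = 0.0115, limma). Wnt5a also counts among the 90 regions of posterior and neuromesodermal genes, whose other member lay in a coding exon of Dll1, a Notch ligand, at 6.35 and 6.28 in MUT on day 2 and none and 2.54 on day 3.

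Nodal and BMP genes had 2 of 151, in a coding exon of Smad6 and downstream of Smad7, which encode the inhibitory SMADs. The Smad6 region was at 5.84 and 6.69 in MUT on day 2 and at 4.40 and 3.77 on day 3. FGF and ERK genes had 3 of 167, assigned to the receptor genes Fgfr1, Fgfr2 and Fgfr3, none of which was open in a MUT library on day 2. Of the 14 list members, the Fn1 region alone passed the limma test in MUT. It lay in a coding exon inside the fibronectin gene, 43623 bp from the gene's 5′ end, and went from 7.85 and 7.02 to no interval in either library, a difference of −2.08 ± 0.117 (adjusted p = 0.00813, limma) that was not called with the replicate block.

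**Figure D5:**
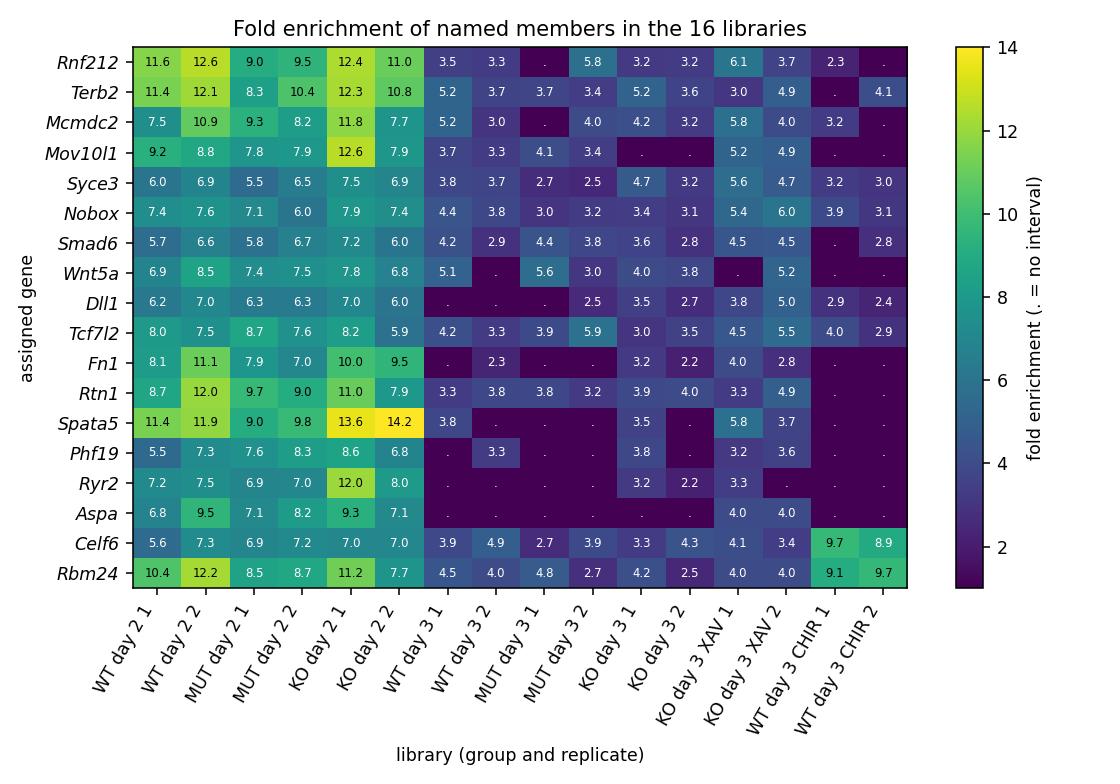
Colour and number give the fold enrichment of 18 named members (rows, by assigned gene) in each of the 16 libraries (columns), with a dot for a library with no interval there. Values on day 2 lie above those on day 3 in nearly all cells, which the rule largely fixes in the WT, KO and XAV columns. The Celf6 and Rbm24 regions are high in both CHIR libraries (8.94 to 9.71).

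Occupancy in MUT cells on day 3 differed between classes of members. Of the 253 members with at least 10 CpG, 78.7% and 84.6% were open in MUT on day 2 and 1.58% and 3.16% on day 3. The 286 members with fewer CpG went from 75.2% and 76.6% to 11.5% and 13.3%. For members in coding exons the shares were 79.2% and 87.4% on day 2 and 3.28% and 3.83% on day 3, and for intronic members 72.7% and 72.0%, then 7.58% and 14.4%. Median log2 differences were −0.87 in coding exons and −0.70 in introns. The order of these classes was not tested. With CHIR, on the other hand, the median difference from MUT was −0.19 for members with at least 10 CpG and −0.57 for those with fewer.

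Several factor motifs were in a smaller share of members than of all regions, and a few in a larger share. Of 20 motifs searched on both strands in the central 300 bp, AP-1 (TGANTCA) was in 5.94% of members and 11.8% of all regions. It was in 10.2% of the 275 regions and in 7.98% of the regions open in all 10 libraries. The TCF and LEF sequence ATCAAAG was in 2.97% of members and 5.00% of all regions, and members were close to those sets (2.91% and 3.03%). The forkhead sequence TGTTTAC was in 1.48% of members and 3.88% of all regions, and in 4.00% and 2.89% of those sets. CTCF was in 0.928% of members and 5.45% of all regions, and in 2.18% and 5.86% of those sets. The POU sequence ATGCNAAT was in 3.90% of members, 11.3% of the 275 regions and 5.06% of all regions. The KLF and SP sequence GGGNGTGG was in 113 members (21%) and 17.8% of all regions. It was in 16.7% of the 275 regions and in 20.6% of the regions open in all 10 libraries, close to the members. The composite OCT-SOX element of Pou5f1 and Sox2, which overlaps the POU sequence, was in 11 members (2.04%), 4 of the 275 regions (1.45%) and 0.614% of all regions. These are matches of letters, and binding was not measured.

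The elements of the 5 best ranked among those 11 members show the match in capitals with its flanks on the plus strand of GRCm38.p6, where a match on the other strand reads in reverse.
Pvr, chr7:19928645-19928674: ttgctgacTATTGTGATGCTAAgggagggg
Hook3, chr8:26059341-26059367: taacatttTATTCTCATGCTGAagacg
Mctp2, chr7:72326174-72326203: aggtagccTATTGTAATGCAAAcgttatag
Pnpla1, chr17:28865748-28865777: tacaatgtTTAGCATTACAATActtagcat
Tspan5, chr3:138776544-138776573: agaacaccTTTTGTTATGTAGAgcagagct
The Pvr, Hook3 and Mctp2 members were open in both MUT libraries on day 2, and the Pnpla1 and Tspan5 members in 1. None of the 11 members with this element was open in a MUT library or a CHIR library on day 3. Of all members, 87.0% were open in neither MUT library on day 3 and 92.6% in neither CHIR library. On day 2, 8 of the 11 were open in both MUT libraries, where 66.4% of all members were. One of them lay 29 bp from a transcript start in Zscan10, a zinc finger gene of pluripotent cells, with 3.58 and 3.95 in MUT on day 2 and 2.43 and none on day 3.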

How the data were processed

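Libraries were grouped by the genotype, day and treatment in the labels. Reads had been aligned to mm10 and peaks called per library by the authors through the ENCODE pipeline for ATAC-seq (tool versions not given in the sources used here, build per the labels). The submitters' processing notes name DiffBind 3.0.15, HOMER 2 and deepTools 3.4.3. The deposited peak lists give the fold enrichment at the summit (a ratio to local background), the −log10 p-value and the −log10 q-value. The −log10 p ranked intervals, the fold enrichment was the level, and the −log10 q was not used. The 2 other deposited lists hold the authors' own comparison of KO and WT and were not used. Intervals with the same start and end were counted once, and 1 bp of overlap made a region open.

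The members and the lists were chosen with earlier results of these data known. Log2(fold enrichment + 1), with the ratio set to 1 where no interval overlapped, was centred on each library's median over the regions open in all 16 libraries. It was tested with limma 3.58.1 (R 4.3.3) over the 6 libraries of MUT and CHIR cells. Benjamini-Hochberg adjustment ran over 80590 regions, with a threshold of 0.05. The script was tested on simulated data. Occupancy was compared with an exact permutation test (SciPy 1.17.1). Same-numbered MUT libraries on day 2 and day 3 come from the same line, which pairs them; the correlation of their deviations was 0.00784. No pair of libraries shared over 0.164% of its intervals. Regions were annotated with GENCODE M21 and assigned to the nearest protein-coding start site within 100 kb. Named regions were the 10 members with the best worst rank on day 2, genes with most members, list genes, the 5 lowest p per direction and contrast, and the 5 regions on each side of the rank limit; germline genes, families, members open with CHIR or in MUT on day 3 and OCT-SOX elements were named after their values were seen. Read depth is unknown, so no counting interval is given. Replicates are separate cell lines, and p-values measure the spread between them. Results at some single genes are not reported here.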

Additional observations from a re-analysis of the deposited data

How the results depend on the processing

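Keeping 30000 intervals per library gave 314 members and keeping every deposited interval gave 1466, against 539 with 50000. Leaving out 1 of the 10 libraries of the rule gave 576 to 822 members, the most without WT day 2 replicate 1. The other alternatives (75000 intervals, ranking by fold enrichment, narrower windows, summits, regions of any library) gave 522 to 808. The difference in MUT occupancy stayed negative under all its alternatives, was −70.9 points with the replicate block by line, −72.6 to −69.1 without 1 library and −17.6 with every deposited interval.

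On −log10 of the rank, 114 members (21.2%) were lower in MUT on day 3, where 1.19% of all regions were. The 64 lower members of the main fit became 0 with the replicate block, and 0 when every library needed an interval. They ranged from 0 to 113 without 1 library. Those fits leave 1 library in a group, so nothing is drawn from their counts. The 115 members that differed between CHIR and MUT became 12 with the interval requirement and 63 on ranks. In the main fit 18.6% were lower and 2.78% higher, where 11.6% and 9.47% of all regions were. At an unadjusted p below 0.05 (limma), 30.8% of members differed, where 33.3% of all regions did. With the interval requirement 1.59% were lower and 4.76% higher, where 6.96% and 3.92% of all regions were. On ranks the shares were 9.28% and 2.41%, against 14.3% and 12.2%. Without 1 library, the median difference of the members ran from −0.49 to −0.20. Of 172 alternative values of single named members, 144 kept their side of the threshold, 28 lost it and none changed sign. With 2 libraries per group and no depth, a region near rank 50000 cannot be placed firmly on either side.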

Other observations

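Members lay on all 19 autosomes and the X chromosome. Chromosome 1 held most (44 of 5345 consensus regions, 0.823%), the share was highest on chromosome 19 (25 of 2392, 1.05%) and lowest on the X chromosome (6 of 1778, 0.337%). Another member lay within 50 kb of 42 members. Of 19 consensus regions assigned to protocadherin beta genes, adhesion genes with a single coding exon that resemble each other closely, 5 (26.3%) were members, at Pcdhb5, Pcdhb8, Pcdhb11, Pcdhb18 and Pcdhb22, and all 5 overlapped a coding exon. Reads of such similar copies may be split between them. Regions at genes with a Zfp symbol were members in 12 of 1256 cases (0.955%). Both families were looked at after the members had been seen, and no test was made.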
